A study of Mus musculus with 6 samples.

Results

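The heat shock chaperones considered here were 10 mouse genes: Hspa1a, Hspa1b, Hspa5, Hspa8, Hsp90aa1, Hsp90ab1, Hsph1, Dnajb1, Dnaja1 and Hspb1. They were measured through every probe set that the platform annotation assigned to exactly 1 gene symbol when that symbol was one of the 10. This gave 25 probe sets for 9 genes, out of 45037 probe sets that were not controls and 18193 named genes. Hsp90ab1 had no probe set listed with its symbol alone and was not analysed here. Of the 25 probe sets, 23 from all 9 genes had a mean signal high enough to be tested, and the other 2 did not.

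The study profiled megakaryocyte progenitors (MkP), the bone marrow and fetal liver cells committed to making platelet-forming megakaryocytes. All 6 arrays came from C57BL/6 mice labelled with the GATA1s genotype, and GATA1s is the short form of the transcription factor GATA1 that lacks its N-terminal activation domain. The 3 bone marrow samples were from adults aged 12 to 18 weeks, and the 3 fetal liver samples were from embryos at E13.5. In both tissues cells were suspended and sorted as CD41+ and CD150+ among c-kit+ cells that were Sca-1- and lin-, total RNA was extracted, and each sample went on 1 array. Tissue and age change together between the groups and cannot be told apart, both groups carry GATA1s, and no sample with full-length GATA1 was part of the comparison. The samples are labelled as biological replicates, and the number of animals behind each is not stated there. Values are linear MAS5 signals, and fold changes are log2 differences (fetal liver minus bone marrow), so that a negative value means lower in fetal liver.

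Heat shock chaperones bind unfolded or newly made proteins and help them fold, stay soluble or be degraded. HSP70 proteins work in cycles driven by ATP, with J-domain proteins (the DNAJ family) delivering the client and starting hydrolysis, nucleotide exchange factors ending the cycle, and HSP90 taking over a subset of clients such as kinases and steroid receptors. Some members are present in every cell at all times, whereas others are induced when heat shock factor 1 binds heat shock elements in their promoters, and the chaperone of the endoplasmic reticulum answers mainly to the unfolded protein response.

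Hspa1a, Hspa1b, Dnajb1 and Hspb1, which are stress-inducible, were lower in fetal liver progenitors. The other 5 measured genes had no call. Among them Hsph1 and Hsp90aa1 are also inducible by stress, and all of their tested probe sets had positive fold changes. Hspa1a was 5.23-fold and Hspb1 5.14-fold lower, with log2 fold changes of -2.39 and -2.36. The Hspb1 value rests on dim signal. Its fetal liver mean of 24.2 was little above the filter for testing, a signal of 22.9. Fetal liver replicate 2, at 17.0, was under it. Hspa1b gave -0.54 to -2.21 depending on the probe set, and Dnajb1 -0.34 or -0.84. Of the 9 member genes, each represented by its brightest probe set, 4 were called lower and 0 higher by limma at an adjusted p of 0.05 (Benjamini-Hochberg over all 11645 genes tested), against a background of 18.3% of all genes called lower and 17.8% called higher. The genes without a call were Hspa8, Hsp90aa1, Hsph1, Dnaja1 and Hspa5. The median log2 fold change of the 9 genes was -0.16, compared with 0.04 over all genes tested. Of the 23 tested member probe sets, 22 were above the filter in both tissues. Among these 7 were called lower, 1 higher and 14 neither, where 15.0% of all 27022 probe sets were called lower and 11.8% higher. Their median was 0.09, against 0.00027 over all probe sets, so the median over probe sets and the median over genes have opposite signs. The other tested probe set, 1425964_x_at of Hspb1, passed the filter through its bone marrow signal alone, had to differ for that reason and is left out of these counts. The scale between arrays matters for the small differences. With each array centred on the median of all its probe sets, most of them dim, every fold change rose by 0.34, and 1348 genes were called lower and 5377 higher in place of 2134 and 2074. Hspa1a and Hspb1 then kept their calls, Dnajb1 (-0.0028, limma adjusted p = 0.986) and Hspa1b (-0.20, adjusted p = 0.133) lost theirs, and Hspa8, Hsp90aa1, Hsph1 and Dnaja1 were called higher. In RNA from a sorted population, fewer cells carrying a transcript and less transcript per cell cannot be told apart.

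**Figure D1:**
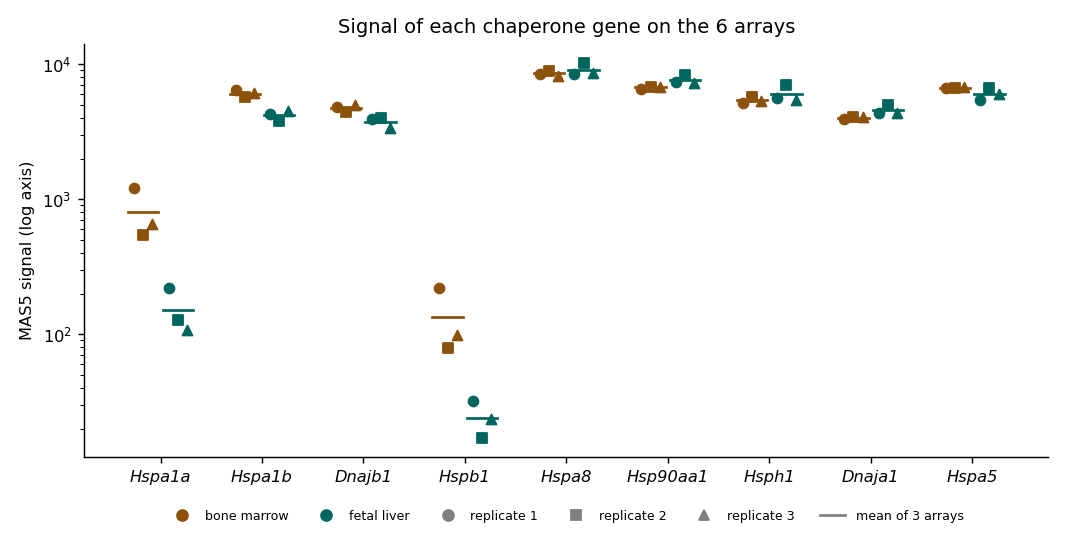
MAS5 signal (log axis) of the brightest probe set of each of the 9 chaperone genes on the 6 arrays; each point is 1 array, the marker shape gives the replicate number and the horizontal line is the mean of 3 arrays. The 3 fetal liver arrays (green) lie below the 3 bone marrow arrays (brown) with a wide gap for Hspa1a and Hspb1 and a narrower one for Hspa1b and Dnajb1, whereas Hspa8 and Hsph1 overlap.

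The arrays were similar in RNA quality and differed in the level of their dim probe sets. The ratio of 3' to 5' signal was 1.30 to 1.42 for beta-actin over the 6 arrays. For Gapdh it was 1.39 to 1.58 in bone marrow and 1.32 to 1.38 in fetal liver, a small difference without overlap. Bone marrow replicate 2 had the highest ratio for both genes. The median signal of all probe sets was 65.9 to 74.6 in bone marrow and 52.0 to 59.1 in fetal liver. Fetal liver replicate 2 stood apart at the bright end: the cre-3 spike control read 15399 there and 12195 to 13053 on the other 5 arrays. On that array the 1477 probe sets with a mean signal above 4000 had a median deviation of 0.16 (log2) from the other fetal liver arrays, and all probe sets past the filter one of -0.04. Most of the chaperones lie in that bright range, and where leaving out this array changes a call or moves a value by a large factor, the value without it is given. The sort was reflected in the marker Itga2b, which encodes CD41, at 3330 to 5307 on all 6 arrays (log2 fold change 0.01, limma adjusted p = 0.963). Slamf1, which encodes CD150, read 1842, 2202 and 2303 in bone marrow and 1014, 2618 and 3024 in fetal liver, a difference of -0.07 (log2, limma adjusted p = 0.886). Fetal liver replicate 1 stood apart here: over the 9 tested gate and lineage genes it was below the other fetal liver arrays by a median of 0.65 (log2). Calls that change without it are given with the members. Kit had a lower fetal liver level (-0.62, adjusted p = 0.0141). Gata1 rose by 0.49 (adjusted p = 0.0138), and since the sources used here do not give the position of its probes, its signal does not check the genotype.

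Promoter sequence was searched for heat shock elements, and the matches did not follow the calls. RefSeq windows of 300 bases (250 before and 50 after the annotated start site, build GRCm38.p6) were available for 7 of the 10 genes, 11 windows in all. Each was searched on both strands for the core of the heat shock element in its forms GAANNTTC and TTCNNGAA, each of which reads the same on either strand and which can overlap each other. An exact match to either core was present in 6 of the 11 member windows, which belong to 5 of the 7 genes, and in 15.1% of all 32851 windows. The members were chosen as heat shock genes, so the larger share among them is not an independent result. The windows of Hspa1a and Hspa1b are near-identical and those of Hsph1 overlap, so they are not separate observations. The share of all windows was 7.86% for GAANNTTC and 8.52% for TTCNNGAA. Below are the 150 bases before the start site for the genes with a match there, with the match in capitals, because they show which called and uncalled genes carry the element.
Hspa1a (chr17:34972157-34972306, minus strand): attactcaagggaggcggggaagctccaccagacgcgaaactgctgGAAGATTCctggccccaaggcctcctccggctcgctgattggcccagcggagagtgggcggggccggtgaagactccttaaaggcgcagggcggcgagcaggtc
Hspa1b (chr17:34959239-34959388, minus strand): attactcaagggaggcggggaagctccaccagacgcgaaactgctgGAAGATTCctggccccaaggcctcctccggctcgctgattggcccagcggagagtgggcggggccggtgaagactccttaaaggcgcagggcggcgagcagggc
Hspb1 (chr5:135887769-135887918, plus strand): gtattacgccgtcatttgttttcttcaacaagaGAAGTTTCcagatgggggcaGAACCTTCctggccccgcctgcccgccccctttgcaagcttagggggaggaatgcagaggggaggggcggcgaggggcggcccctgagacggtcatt
Hsph1 (chr5:149636337-149636486, minus strand): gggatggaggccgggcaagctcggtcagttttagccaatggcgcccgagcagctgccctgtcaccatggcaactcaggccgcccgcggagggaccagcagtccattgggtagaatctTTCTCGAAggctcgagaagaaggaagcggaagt
Dnaja1 (chr4:40722318-40722467, plus strand): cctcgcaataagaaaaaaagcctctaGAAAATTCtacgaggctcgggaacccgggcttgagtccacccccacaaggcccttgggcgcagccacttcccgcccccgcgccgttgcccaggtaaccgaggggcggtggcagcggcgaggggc

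The match began 104 bases upstream of the start site in both Hspa1a and Hspa1b. The windows of these neighbouring genes were identical at 296 of 300 positions, and at 149 of the 150 shown. Hspb1 had 2 matches, beginning 117 and 97 bases upstream. Hsph1 had a match beginning 33 bases upstream and a heat shock element with 3 alternating units from 36 to 48 bases after the start, a longer form present in 0.603% of all windows; its second window held the same elements. Dnaja1 had its match, beginning 124 bases upstream, in 1 of its 3 windows. Neither of the 2 Dnajb1 windows held an exact core. The match was therefore present both in genes called lower (Hspa1a, Hspa1b, Hspb1) and in genes without a call (Hsph1, Dnaja1), and it was missing from the searched letters of a gene called lower (Dnajb1). Such matches describe the letters in these windows and not the binding of a factor.

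**Figure D2:**
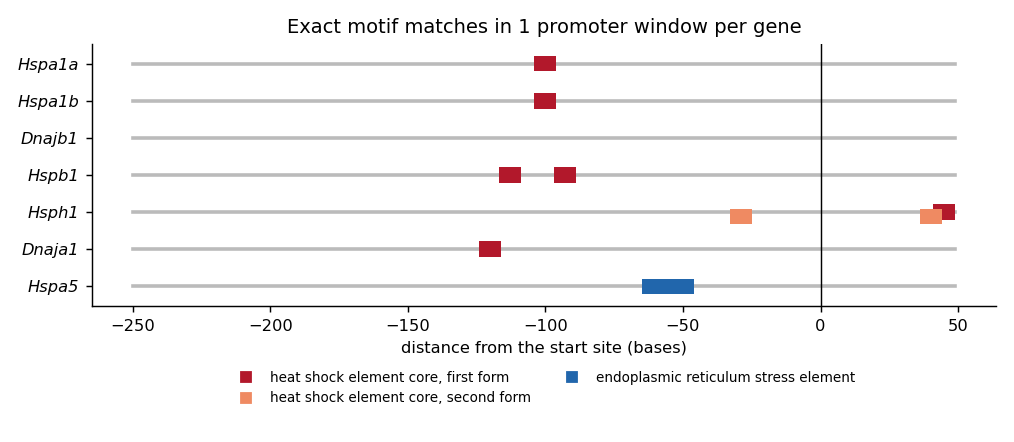
Position of exact motif matches in 1 RefSeq promoter window per gene, as distance in bases from the annotated start site (vertical line); grey bars are the 300-base windows, red and orange blocks the 2 forms of the heat shock element core and the blue block the endoplasmic reticulum stress element. Hspa1a and Hspa1b share a match beginning 104 bases upstream, Hspb1 has 2, Hsph1 has matches on both sides of the start, and the Dnajb1 window has none.

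Hspa1a and Hspa1b encode near-identical forms of the inducible cytosolic HSP70 and lie side by side on chromosome 17. Because the genes are near-identical copies, a probe set named for either may also take up transcripts of the other, and their separate contributions are uncertain. The Hspa1a probe set (1452388_at) read 1219, 544 and 660.0 on the 3 bone marrow arrays and 222, 128 and 107 on the 3 fetal liver arrays. All bone marrow arrays were above all fetal liver arrays, and bone marrow replicate 1 was about double the other bone marrow arrays. The means were 807 ± 361 and 152 ± 60.8 (SD, n = 3 arrays each), a log2 fold change of -2.39 (SE 0.34, 95% confidence interval -3.15 to -1.63, limma adjusted p = 0.000637). Without bone marrow replicate 1 the log2 fold change was -2.05 (limma adjusted p = 0.00123).

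The 3 Hspa1b probe sets were all lower in fetal liver and differed in how much. Probe set 1427126_at read 2619, 1595 and 1489.8 in bone marrow and 318, 369.8 and 538 in fetal liver, a log2 fold change of -2.21 (SE 0.24, limma adjusted p = 0.000143). Probe set 1427127_x_at read 3112, 1912 and 2018 against 594, 530.0 and 760.5, a log2 fold change of -1.88 (SE 0.20, limma adjusted p = 0.000109). On both of these bone marrow replicate 1 was the highest array and the tissues did not overlap. The brightest probe set, 1452318_a_at, read 6432, 5699.6 and 6102 in bone marrow and 4279, 3813 and 4503 in fetal liver. Its log2 fold change was -0.54 (SE 0.09, 95% confidence interval -0.73 to -0.34, limma adjusted p = 0.00127), or 1.45-fold lower, while the dimmer probe sets were 4.62-fold and 3.69-fold lower. The intervals of the dimmer probe sets (-2.75 to -1.66 and -2.33 to -1.44) did not reach that of the brightest. The gene value for Hspa1b therefore depends on the probe set, and the mean of its probe sets gave -1.54.

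Dnajb1 encodes the J-domain protein HSP40, a main partner that delivers clients to inducible HSP70. Its brighter probe set, 1416755_at, read 4848, 4453 and 4979.5 in bone marrow and 3927, 4012 and 3362 in fetal liver. The tissues did not overlap, and the log2 fold change was -0.34 (SE 0.09, 95% confidence interval -0.54 to -0.14, limma adjusted p = 0.0172). This call was lost without bone marrow replicate 1 (-0.33, adjusted p = 0.0543), without bone marrow replicate 3 (-0.31, adjusted p = 0.0790) and without fetal liver replicate 3 (-0.26, adjusted p = 0.0629), as limma gave them. The dimmer probe set, 1416756_at, read 2272, 1466 and 1693 against 1026, 1024 and 935. Bone marrow replicate 1 was again the highest array, the 3 fetal liver arrays lay close together, and the log2 fold change of -0.84 (SE 0.15, limma adjusted p = 0.00322) kept its call in each of 16 alternatives.

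Hspb1 encodes the small heat shock protein HSP27 (HSP25 in mouse), an ATP-independent holdase that also binds actin filaments. It was the dimmest member. Probe set 1422943_a_at read 222, 78.9 and 99.0 in bone marrow and 32.0, 17.0 and 23.5 in fetal liver. The tissues did not overlap, bone marrow replicate 1 was more than double the other bone marrow arrays, and the means were 133 ± 77.3 and 24.2 ± 7.54 (SD, n = 3 each). The log2 fold change was -2.36 (SE 0.43, 95% confidence interval -3.33 to -1.40, limma adjusted p = 0.00260), and -1.92 without bone marrow replicate 1 (adjusted p = 0.00670). Probe set 1425964_x_at read 155, 65.5 and 45.5 in bone marrow and 4.46, 15.8 and 19.6 in fetal liver, where replicate 1 lay below the level of unspiked control probe sets, 10.6. Its fetal liver mean of 13.3 was under the filter of 22.9, so this probe set was tested because of its bone marrow signal, and its values are given without a fold change or test.

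Hsph1 encodes HSP110, a nucleotide exchange factor for HSP70 that is also heat-inducible, and it did not share the lower level. Its brighter probe set, 1425993_a_at, read 5149.9, 5721 and 5313 in bone marrow and 5645, 7051 and 5439 in fetal liver. The tissues overlapped, fetal liver replicate 2 was the highest array, and the log2 fold change was 0.16 (SE 0.10, 95% confidence interval -0.08 to 0.39, limma adjusted p = 0.269). The dimmer probe set, 1423566_a_at, read 1623, 1334 and 1258 against 1549, 2149.5 and 1877. Its log2 fold change was 0.40 (95% confidence interval 0.08 to 0.72, limma adjusted p = 0.0683), and it was called higher without bone marrow replicate 1 (0.51, adjusted p = 0.0393) or without fetal liver replicate 1 (0.52, adjusted p = 0.0177). Without fetal liver replicate 2, Hsph1 gave 0.29 on this probe set (limma adjusted p = 0.193) and 0.040 on the brighter one (adjusted p = 0.683).

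**Figure D3:**
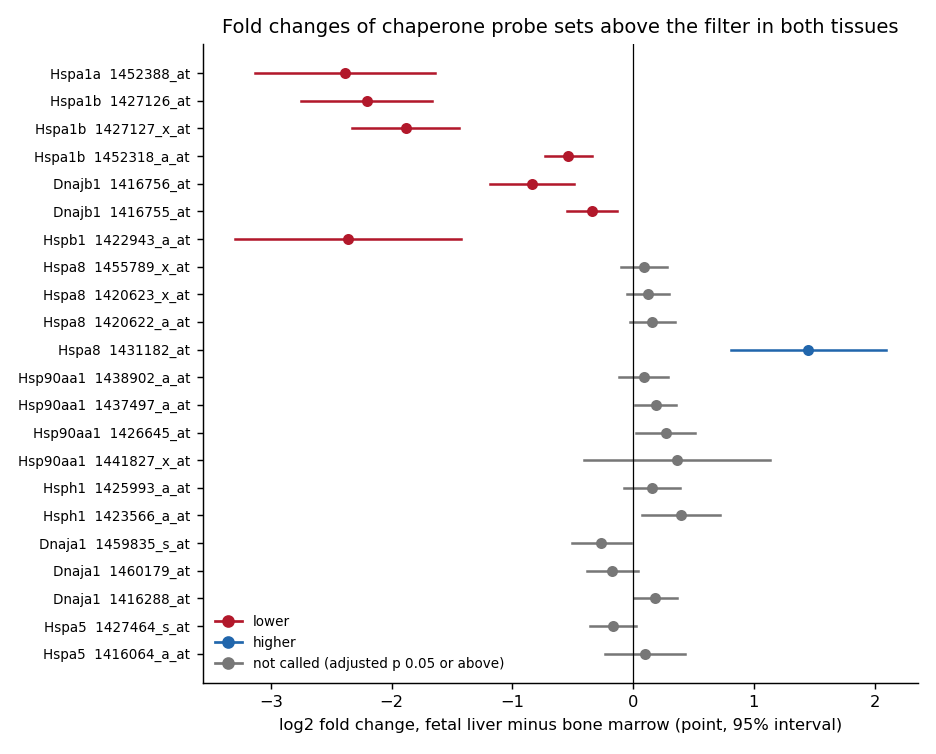
Log2 fold change between the tissues (fetal liver minus bone marrow) of the 22 chaperone probe sets above the filter in both tissues; points are limma estimates from 3 arrays per tissue and bars their 95% confidence intervals, coloured by call at an adjusted p of 0.05. The 7 probe sets of Hspa1a, Hspa1b, Dnajb1 and Hspb1 shown lie left of 0, from -0.34 to -2.39, and the Hspa8 probe set 1431182_at is the sole one called higher, at 1.45.

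Hspa8 encodes HSC70, the constitutive cytosolic HSP70 that handles nascent chains, clathrin uncoating and chaperone-mediated autophagy. Its brightest probe set, 1455789_x_at, read 8483, 8989.9 and 8249 in bone marrow and 8510.5, 10270.3 and 8680.0 in fetal liver. The tissues overlapped, and the log2 fold change was 0.09 (SE 0.08, 95% confidence interval -0.10 to 0.28, limma adjusted p = 0.430), or 0.0044 without fetal liver replicate 2 (adjusted p = 0.961). Probe sets 1420622_a_at and 1420623_x_at gave 0.16 and 0.12 (limma adjusted p = 0.198 and 0.270 among all probe sets), and 0.067 and 0.048 without that array. On both, the 3 fetal liver arrays lay above the bone marrow ones. The fourth probe set, 1431182_at, behaved differently: it read 364, 627 and 892 in bone marrow and 2061, 1513 and 1338 in fetal liver. These arrays did not overlap, and the log2 fold change was 1.45 (SE 0.29, 95% confidence interval 0.81 to 2.09, limma adjusted p = 0.00475). It kept its call in each of 16 alternatives, and its direction was not shared at that size by the other Hspa8 probe sets. The sources used here do not say where its probes lie in the gene, so the difference is a property of this probe set. Averaging the 4 probe sets gave 0.46 for the gene (limma adjusted p = 0.00719), a call that the brightest probe set did not make.

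Hsp90aa1 encodes HSP90 alpha, the HSP90 isoform that is more readily induced by stress. Probe set 1437497_a_at read 6527, 6844 and 6838 in bone marrow and 7387, 8382 and 7266 in fetal liver. The fetal liver arrays were all above the bone marrow arrays, yet the log2 fold change was 0.19 (SE 0.07, 95% confidence interval 0.02 to 0.35) and did not pass the threshold (limma adjusted p = 0.0767). Of the other probe sets, 1426645_at gave 0.27, 1438902_a_at 0.09 and 1441827_x_at 0.36, with limma adjusted p of 0.101, 0.522 and 0.481. The last of these was dim, at 46.0 to 105 over the 6 arrays. Without fetal liver replicate 1, 1426645_at was called higher (0.36, limma adjusted p = 0.0269), while without replicate 2 it gave 0.14 (adjusted p = 0.194). Without replicate 2 the gene value of Hsp90aa1 was 0.12 (limma adjusted p = 0.115) and 1441827_x_at gave 0.75 (adjusted p = 0.0778). Probe set 1433251_at, at 8.94 to 24.9, was not tested.

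Dnaja1 encodes a cytosolic J-domain protein that partners HSC70 in folding and import. Its probe sets disagreed in sign. The brightest, 1416288_at, read 3938, 4048 and 4042 in bone marrow and 4335, 4971 and 4394 in fetal liver, where all arrays were higher, with a log2 fold change of 0.19 (SE 0.08, 95% confidence interval 0.01 to 0.36, limma adjusted p = 0.0939), or 0.12 without fetal liver replicate 2 (adjusted p = 0.167). Probe sets 1459835_s_at and 1460179_at gave -0.26 and -0.17 (limma adjusted p = 0.111 and 0.219), with overlapping arrays on both. Without fetal liver replicate 1, 1459835_s_at was called lower (-0.37, limma adjusted p = 0.0189). Without replicate 2 these probe sets gave -0.18 and -0.11 (limma adjusted p = 0.251 and 0.415).

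Hspa5 encodes BiP, the HSP70 of the endoplasmic reticulum and a standard readout of the unfolded protein response. Its window held an exact endoplasmic reticulum stress element, beginning 65 bases upstream, which occurs in 0.119% of all windows. The 150 bases before its start, with that element in capitals, are given because no other member window held it.
Hspa5 (chr2:34771940-34772089, plus strand): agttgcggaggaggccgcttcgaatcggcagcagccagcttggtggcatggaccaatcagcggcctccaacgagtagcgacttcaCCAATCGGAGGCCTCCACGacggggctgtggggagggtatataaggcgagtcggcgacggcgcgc
The Hspa5 window held neither heat shock element core. Probe set 1427464_s_at read 6709, 6706 and 6764 in bone marrow and 5401, 6694 and 5994 in fetal liver. All fetal liver arrays were lower, replicate 2 by little, and the log2 fold change was -0.16 (SE 0.08, 95% confidence interval -0.35 to 0.03, limma adjusted p = 0.161). Without fetal liver replicate 2 it was -0.24 and was called lower (limma adjusted p = 0.0221). Probe set 1416064_a_at read 5194, 5325 and 5007 against 4399, 7220.1 and 5344, so fetal liver held both the highest and the lowest array. Its log2 fold change was 0.10 (limma adjusted p = 0.673), and it turned to -0.09 without fetal liver replicate 2. The third probe set, 1447824_x_at, ranged from 4.53 to 51.1 and was not tested.

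The members also differed in which array stood out. Bone marrow replicate 1 was the highest bone marrow array in 6 of the 7 probe sets that were called lower and above the filter in both tissues, and replicate 2 the lowest in 6. Most of the 7 come from the near-identical Hspa1a and Hspa1b and are not separate observations. How often each array was highest over all probe sets was not counted. Over all probe sets past the filter, replicate 1 deviated by a median of 0.03 (log2) and replicate 2 by -0.03. Fetal liver replicate 2 was the highest fetal liver array in 10 of the 14 probe sets without a call, as it was for bright probe sets at large, and in 1 of the 7 called lower. For Hspa1a, bone marrow replicate 1 deviated by 1.02 (log2) from the mean of replicates 2 and 3, and for Hspb1 (1422943_a_at) by 1.33. For the brightest probe sets of Hspa8, Hsp90aa1 and Dnaja1 the same array deviated by -0.02, -0.07 and -0.04. The strongly changed members thus also had the widest spread between bone marrow samples.

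**Figure D4:**
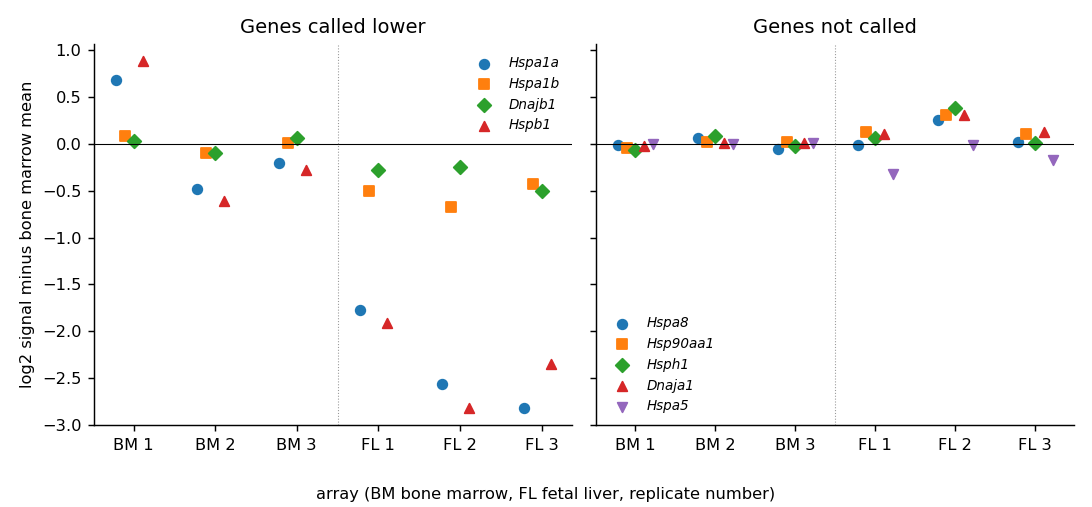
Log2 signal of each chaperone gene on each array minus its bone marrow mean, for the 4 genes called lower (left) and the 5 without a call (right); each point is 1 array. Bone marrow replicate 1 is high for Hspa1a and Hspb1, all fetal liver points of the 4 genes lie below 0, and fetal liver replicate 2 is the highest fetal liver array for the 5 genes on the right.

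A mean log2 profile was taken over the inducible members Hspa1a, Hspa1b, Hsph1, Dnajb1 and Hspb1, without Hsp90aa1. Hspa1a (-2.39) and Hspb1 (-2.36) differed most between the tissues and weigh most in this mean. Hspa1b (-0.54) and Dnajb1 (-0.34) weigh less, and Hsph1 (0.16) went the other way. The genes most like this profile over the 6 arrays were sought among 3197 genes that ranged over at least 1 on the log2 scale. They were Smad7, Crebrf, Tnfrsf12a, Bbc3 and Fam13a, with a Pearson r of 0.998, 0.995, 0.993, 0.993 and 0.993. Smad7 read 3135, 1068 and 1661 in bone marrow and 326, 203 and 201 in fetal liver, so it shared the high bone marrow replicate 1. For Hspa5 the closest were Pde1b, Jsrp1, Ang, Vwf and Clgn, with r from 0.933 to 0.925. These correlations describe 6 arrays that share the tissue difference.

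The regulators of the response gave few values. Hsf1, the main heat shock factor, had no probe set listed with its symbol alone and was not analysed here. Both probe sets of Hsf2 were too dim to test: 1444436_at was below the control level on all 6 arrays, and 1449306_at read 6.49 to 13.47. Hsbp1, which encodes a protein that binds heat shock factor trimers, was the 1 gene of that list past the filter, and it had no call (log2 fold change 0.22).

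The wider chaperone network held calls in both directions at shares near those of all genes. Over the 7 other chaperone lists, 14 of 100 distinct tested genes were lower (14.0%, against 18.3% of all genes). Another 21 were higher (21.0%, against 17.8%). Single lists departed from these shares. Of the HSP90 paralogues and co-chaperones 7 of 15 were higher, and of the chaperonins and prefoldin 5 of 16. In the endoplasmic reticulum list 0 of 23 were higher. The lists are short, and whether any of them differs from all genes was not tested. Among the other HSP70 and HSP110 genes 2 of 8 tested were lower and 2 higher (median log2 fold change 0.09). Hspa2, known for its role in spermatogenesis, fell by 0.63 (limma adjusted p = 0.0140) and Hspa13 by 0.43 (adjusted p = 0.0175). Hspa12b, an endothelial HSP70 relative, rose by 0.87 (adjusted p = 0.00827) and the ribosome-associated Hspa14 by 0.33 (adjusted p = 0.0117). Of 15 tested HSP90 paralogues and co-chaperones 7 were higher and 2 lower (median 0.26). Ahsa1, which stimulates the HSP90 ATPase, rose by 0.37 (adjusted p = 0.0123) and Fkbp8 by 0.44 (adjusted p = 0.0126). Fkbp5, a glucocorticoid-responsive co-chaperone, fell by 0.56 (adjusted p = 0.00497) and Cdc37l1 by 0.30 (adjusted p = 0.0306), a size that the shift of 0.34 under median centring would turn positive.

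Among 27 other J-domain proteins 6 were lower and 6 higher (median 0.02). Dnajb4, a close relative of Dnajb1, read 2431, 1968 and 2341 in bone marrow and 1177, 1064 and 1248 in fetal liver. The tissues did not overlap and it fell by 0.95 (SE 0.11, limma adjusted p = 0.000233). Dnaja4 read 284, 400.3 and 632 against 96.4, 113 and 137 and fell by 1.86 (SE 0.28, adjusted p = 0.000983). Dnajc24 and Dnajc17 rose by 0.53 and 0.59. Of 11 nucleotide exchange factors and HSP70 partners 1 fell and 1 rose (median -0.03). Bag3, a stress-inducible co-chaperone that links HSP70 to small heat shock proteins and selective autophagy, read 730.4, 511 and 517 in bone marrow and 345, 274 and 336 in fetal liver. It fell by 0.87 (SE 0.18, adjusted p = 0.00524), with bone marrow replicate 1 again the highest array. Grpel1, the mitochondrial exchange factor, rose by 0.41 (adjusted p = 0.00940).

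Of 5 tested genes in the list named for small heat shock proteins other than Hspb1, Hspb11 fell by 0.44 (limma adjusted p = 0.0213) and 0 rose (median -0.22). Membership of this list does not show that Hspb11 acts as a chaperone. The chaperonins and prefoldin, the complex that hands actin and tubulin to the cytosolic chaperonin, had 5 of 16 higher and 0 lower (median 0.24), with Pfdn4 up by 0.92 (adjusted p = 0.00102) and Pfdn6 by 0.47 (adjusted p = 0.00337). Among 23 genes of endoplasmic reticulum folding and the unfolded protein response 3 were lower and 0 higher (median 0.02). Ddit3, which encodes the stress transcription factor CHOP, fell by 1.83 (adjusted p = 9.45e-05), from 2398 ± 384 to 681 ± 155 (SD, n = 3 each), and Dnajb9 fell by 0.91 (adjusted p = 0.00117). Herpud1 was the other gene called lower, while the folding enzymes and lectins of that list had no call. Hyou1, Hsp90b1, Dnajb9, Dnajb11 and Dnajc3 belong to 2 of these lists each.

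**Figure D5:**
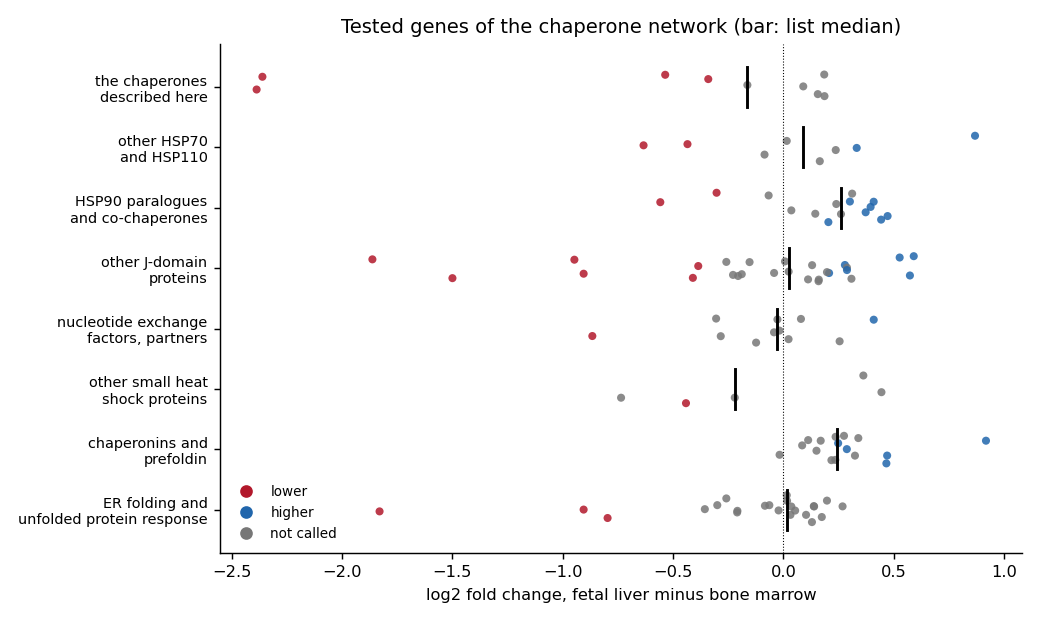
Log2 fold change between the tissues (fetal liver minus bone marrow) of every tested gene in the chaperone lists; each point is 1 gene, coloured by its call, and the black bar is the list's median. Points fall on both sides of 0 in every list, the chaperonins and prefoldin lie mostly right of 0 with a median of 0.24, and the chaperones described here have a median of -0.16.

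Immediate early genes, which respond within minutes to growth factors or stress, differed in the same direction as the 4 chaperone genes called lower. Of 25 tested, 20 were lower in fetal liver and 0 higher, where 18.3% of all genes were called lower and 17.8% higher. Their median log2 fold change was -1.66. Their summed signal was 83031 to 86552 in bone marrow and 21926 to 50217.5 in fetal liver. Klf6 fell by 1.21 (limma adjusted p = 0.00304), and Jund was at -0.17 (adjusted p = 0.180). Within fetal liver, replicate 1 was above the other arrays by 1.17 (list median, log2) and replicate 3 below by 1.06. Hspa1a was likewise highest in fetal liver replicate 1 and lowest in replicate 3, whereas the 3 Hspa1b probe sets were highest in replicate 3. Within bone marrow the list deviated by 0.04, -0.13 and 0.07 in replicates 1 to 3, without the high replicate 1 of Hspa1a and Hspb1. The part of these genes in the chaperone result was not tested.

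Markers of other cells moved with tissue as well, beside 18.3% of all genes called lower and 17.8% higher. All 14 tested granulocyte and monocyte markers fell (14 of 14, median -4.57), with a summed signal of 62442 to 77662 in bone marrow and 8085 to 10025 in fetal liver. Mpo fell by 0.84 and Lyz2 fell by 1.46, and Itgam was below the control level on every fetal liver array. Macrophage markers were lower for 6 of 6 (summed signal 2174 to 2606 against 316 to 429), with C1qc below the control level in fetal liver, Cd68 at -1.54 and Csf1r at -3.48. Mast cell and basophil markers were lower for 5 of 5 (3962 to 5155 against 231 to 346), with Fcer1a, Mcpt8 and Gzmb below the control level, Cpa3 at -0.84 and Hdc at -3.59. Lymphoid markers were lower for 5 of 6 (3056 to 4461 against 1281 to 1492). Vpreb1 fell by 1.94, Cd79b had no call (-0.23), and Cd79a, Pax5, Rag1 and Cd3e were below the control level in fetal liver. Some of these genes had a fetal liver mean under the filter and were tested through bone marrow alone. They were 1 of the granulocyte and monocyte, 2 of the macrophage, 3 of the mast cell and basophil and 4 of the lymphoid markers. The same held for 1 erythroid marker, and in the other direction for 2 hepatoblast markers. The filter fixed the direction of all these genes. They add no support to the counts and summed signals, which include them. The summed signals of the granulocyte and monocyte, macrophage, mast cell and basophil, and lymphoid lists were higher in bone marrow. The 4 chaperone genes called lower were higher on the same arrays, and the part of the marker transcripts in the chaperone result was not tested.

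Other lineages moved less or upward, in short lists to be read beside the same shares of all genes (18.3% lower, 17.8% higher). Erythroid markers were lower for 4 of 12 and higher for 1 (21078 to 33425 in bone marrow against 18131 to 20759). Car2 and Tfrc had no call (-0.01 and -0.14). Endothelial markers were higher for 3 of 6 (3799.9 to 4423 against 4783 to 6268), with Tek up by 0.49 and Eng at -0.04 without a call. Hepatoblast markers were higher for 2 of 4 and lower for 1 (239 to 315 against 1008 to 1474), with Afp at -1.84 and Apob below the control level in fetal liver. Of these 4 genes, 2 had a bone marrow mean under the filter. The filter fixed their direction, so the count of genes called higher is no evidence of a rise. Dlk1 read 10.6, 11.4 and 19.5 in bone marrow, at or near the control level, and 1316, 1104 and 871 in fetal liver, and no fold change is given for it. Megakaryocyte gate and lineage genes were lower for 1 of 9 and higher for 2 (28289 to 31379 against 23950.3 to 38238), and Pf4, the platelet chemokine gene, had no call (-0.16). Bone marrow replicate 1 was high for Hspa1a and Hspb1. It deviated from the other bone marrow arrays by -0.91 in erythroid, -0.86 in lymphoid, -0.58 in mast cell and basophil, -0.30 in granulocyte and monocyte and -0.09 in endothelial markers (list medians, log2). It deviated by 0.19 in megakaryocyte gate and lineage genes, 0.18 in macrophage and 0.07 in hepatoblast markers.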

How the data were processed

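Per the submitters' processing notes, the authors made the deposited intensity values with MAS5, on a linear scale with a value for each probe set on each array. The sources used here do not give its version. The mean of each array, trimmed by 2% at either end, was 500. MAS5 signals spread widely at low intensity, so ratios of dim probe sets are noisy. The 45101 probe sets included 64 controls. Among the remaining 45037, the platform annotation gave 34945 exactly 1 symbol, 932 several and 9160 none listed. By Entrez identifier 34741 matched a RefSeq table, and 0 symbols needed updating.

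No offset was added before log2. Tests were limited to probe sets whose mean log2 signal exceeded the 40th percentile (a signal of 22.9). limma 3.58.1 (R 4.3.3; lmFit and eBayes with an intensity trend) fitted tissue as the only term, once over 27022 probe sets and once over 11645 genes, each represented by its brightest probe set. P-values were adjusted by Benjamini-Hochberg at 0.05. The scripts were tested on simulated data. The control level of 10.6 was set by the 27 bacterial control probe sets without a spike, at their 95th percentile. Confidence intervals are limma's, at 95%. An exact permutation test of 3 arrays against 3 has 0.1 as its smallest two-sided p and was not used. The number of arrays limits the precision, and the p-values reflect spread among these samples alone.

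The members and gene lists were chosen with earlier results of these data known. Named genes were all members with every probe set, Hsf1 and Hsf2, up to 2 genes called per direction in each other chaperone list by smallest adjusted p, the 2 brightest tested genes of the immediate early and each marker list, and the 5 genes most like each of 2 member profiles. Herpud1, Hsbp1 and markers below the control level were named in addition, after their values were seen. Promoter windows are RefSeq's. Alternatives changed the filter, scaling, offset, low-signal floor, probe set choice and variance prior, added a replicate block or left out each array. Tables and figures used pandas 2.3.3, numpy 2.4.6, Python 3.11.15 and, for plots, matplotlib 3.10.9.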

Additional observations from a re-analysis of the deposited data

How the results depend on the processing

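Hspa1a, Hspb1, the 2 dimmer Hspa1b probe sets, Dnajb1 1416756_at and Hspa8 1431182_at kept their direction and call under every alternative that gave a value (the filter at the 60th percentile removed Hspb1). Dnajb1 as a gene lost its call under 6 of 17 alternatives and Hspa1b under 1.

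Centring each array on the median of all probe sets, most of them dim, moved the median of all genes from 0.04 to 0.38 and the share of calls that were higher from 49.3% to 80.0% (1348 lower and 5377 higher, against 2134 and 2074). Under it 6725 genes were called rather than 4208 and 12515 probe sets rather than 7237. Members called lower went from 4 to 2, those called higher from 0 to 4, and the members' median from -0.16 to 0.17. Member probe sets called higher went from 1 to 10 of 23. Over all 27022 probe sets the number called higher went from 3189 to 9848, so most of the rise in the member count goes with the common shift. Hspa5 and its probe set 1427464_s_at turned to 0.17, Dnaja1 1459835_s_at to 0.075 and 1460179_at to 0.17, Dnajb1 went to -0.0028 (limma adjusted p = 0.986) and Hspa1b to -0.20 (0.133). Centring on the tested genes, an alternative added after seeing the data, gave 1 member called higher (Hsp90aa1, 0.25, limma adjusted p = 0.0446), and Dnajb1 lost its call (-0.28, 0.0566), as it did without the variance trend (0.0587).

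The mean of probe sets gave 1 member called higher, a members' median of -0.083, -0.083 for Dnaja1 and -0.59 for Dnajb1. The members' median was -0.037 with the filter at the 60th percentile and -0.26 with quantile normalization, which also called Hspa5 lower (limma adjusted p = 0.0112) and turned Hspa5 1416064_a_at to -0.0049.

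Leaving out 1 array at a time gave 2865 to 4436 genes and 4610 to 7761 probe sets called, the fewest without bone marrow replicate 3. Members called lower ranged from 3 to 5, and called higher stayed at 0. Of all 23 tested member probe sets, 7 to 9 were called lower, against 8 with all arrays, and 1 to 3 higher. These 23 include the Hspb1 probe set tested through its bone marrow signal alone, which the Results leave out of their count of 7. That probe set was called lower whichever array was left out and so is in each of these counts. The filter fixed its direction, so its calls add no support. The members' median ranged from -0.24 to -0.086. Hspa5 1416064_a_at ranged from -0.094 (without fetal liver replicate 2) to 0.26. Same-numbered arrays had correlated deviations no more than others (r of -0.08, 0.07 and -0.11, against -0.05 to 0.14 for the other pairs). With 3 arrays per tissue this cannot exclude that same-numbered samples were prepared together. The replicate block gave 3847 genes, 6904 probe sets and 2 member probe sets called higher. The median over the 23 tested member probe sets was 0.087, and -0.094 without fetal liver replicate 2. The cause of these shifts was not tested. Low signal limits Hspb1 most, since its fetal liver values lie near the control level.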
